A study of Homo sapiens with 6 samples.

Results

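The ATP-binding cassette (ABC) genes were read out of the RNA-seq of NCI-H660, a human cell line of neuroendocrine prostate cancer (NEPC) in which the transmembrane mucin gene MUC1 can be silenced. Members were all genes whose symbol is ABC, a subfamily letter from A to G and a number. This gave 46 of the 28008 genes counted, of which 45 are annotated as protein coding and ABCC13 as a transcribed pseudogene. After the filter on low counts 32 members were tested and 14 were not. All 6 libraries came from cells carrying pLKO-tet-puro with 1 short hairpin RNA against MUC1 (tet-MUC1shRNA) and selected in puromycin. The 3 DOX-negative cultures received 0.1% DMSO as vehicle, and the 3 DOX-positive cultures received 500 ng/ml doxycycline (DOX) for 7 days, which switches the hairpin on. DOX-treated cells without the hairpin were not analysed here, so an effect of the drug itself and an effect of silencing cannot be told apart. A single hairpin in a single cell line carries the whole comparison.

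ABC proteins bind and hydrolyse ATP at a pair of conserved cassettes, and most of them use that energy to move a substrate across a membrane. Subfamilies A and G hold mainly lipid and sterol transporters, B and C mix drug and metabolite exporters with organelle transporters and ion channel regulators, and D serves peroxisomes and lysosomes. Subfamilies E and F have the cassettes but no membrane domain and act in protein synthesis. Export by ABCB1 (P-glycoprotein), several ABCC proteins and ABCG2 (breast cancer resistance protein, BCRP) lowers the intracellular level of many anticancer drugs, and ABCG2 is also widely used to recognise stem-like side population cells.

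The libraries held from 47620696 to 74061121 counts. MUC1 was at 88.2, 90.2 and 79.6 CPM (counts scaled to 1000000 per library with TMM factors) in DOX-negative replicates 1 to 3, and at 36.7, 37.2 and 29.9 CPM in DOX-positive replicates 1 to 3. Its log2 fold change was -1.32 (SE 0.096, adjusted p = 0.00017 by edgeR's quasi-likelihood test), so the labels and the targeted gene went together. All 6 neuroendocrine markers were detected. Among neuroendocrine markers, NCAM1 and INSM1 fell, and the list summed to 1542 to 1750 CPM without DOX and to 1260 to 1557 CPM with it. Marker lists of other cell types were low, and the sums of the endothelial and leukocyte lists did not overlap between the groups. In the endothelial list CDH5 and VWF rose, with a summed level of 3.09 to 4.76 CPM without DOX and 6.24 to 8.35 CPM with it, while PECAM1 stayed near 0. In the leukocyte list 2 members were tested and only CD68 was called, which rose. The leukocyte sum was 2.43 to 2.86 CPM without DOX and 3.32 to 3.86 CPM with it, and PTPRC and CD3E were at or near 0. In the fibroblast list 3 of 7 members were tested: COL1A1 and LUM rose, whereas COL1A2 was lower in every DOX-positive library without being called (log2 fold change -0.71, adjusted p = 0.20). The sum of that list was 25.1 to 30.6 CPM without DOX and 23.4 to 27.9 CPM with it, and DCN, COL3A1, PDGFRB and THY1 were at or near 0. The part of these markers in the ABC results was not tested. The RNA came from whole cultures, so a change in the share of some cells and a change in RNA per cell cannot be told apart.

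Of the 32 tested members, 5 passed the test at an adjusted p under 0.05, against 4.87% of all 17026 genes tested. ABCG2, ABCC3 and ABCC4 rose with DOX, where 2.91% of all tested genes were called higher. ABCA1 and ABCC8 fell, where 1.96% of all tested genes were called lower. The groups did not overlap for 5 members that were higher and 5 that were lower with DOX, against 14.8% and 13.3% of all tested genes (28.1% in either direction). At an unadjusted p under 0.05 there were 10 members, against 21.1% of all tested genes. The median log2 fold change of the tested members was -0.037, with 14 above 0 and 18 below, and that of all tested genes was 0.00034.

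**Figure D1:**
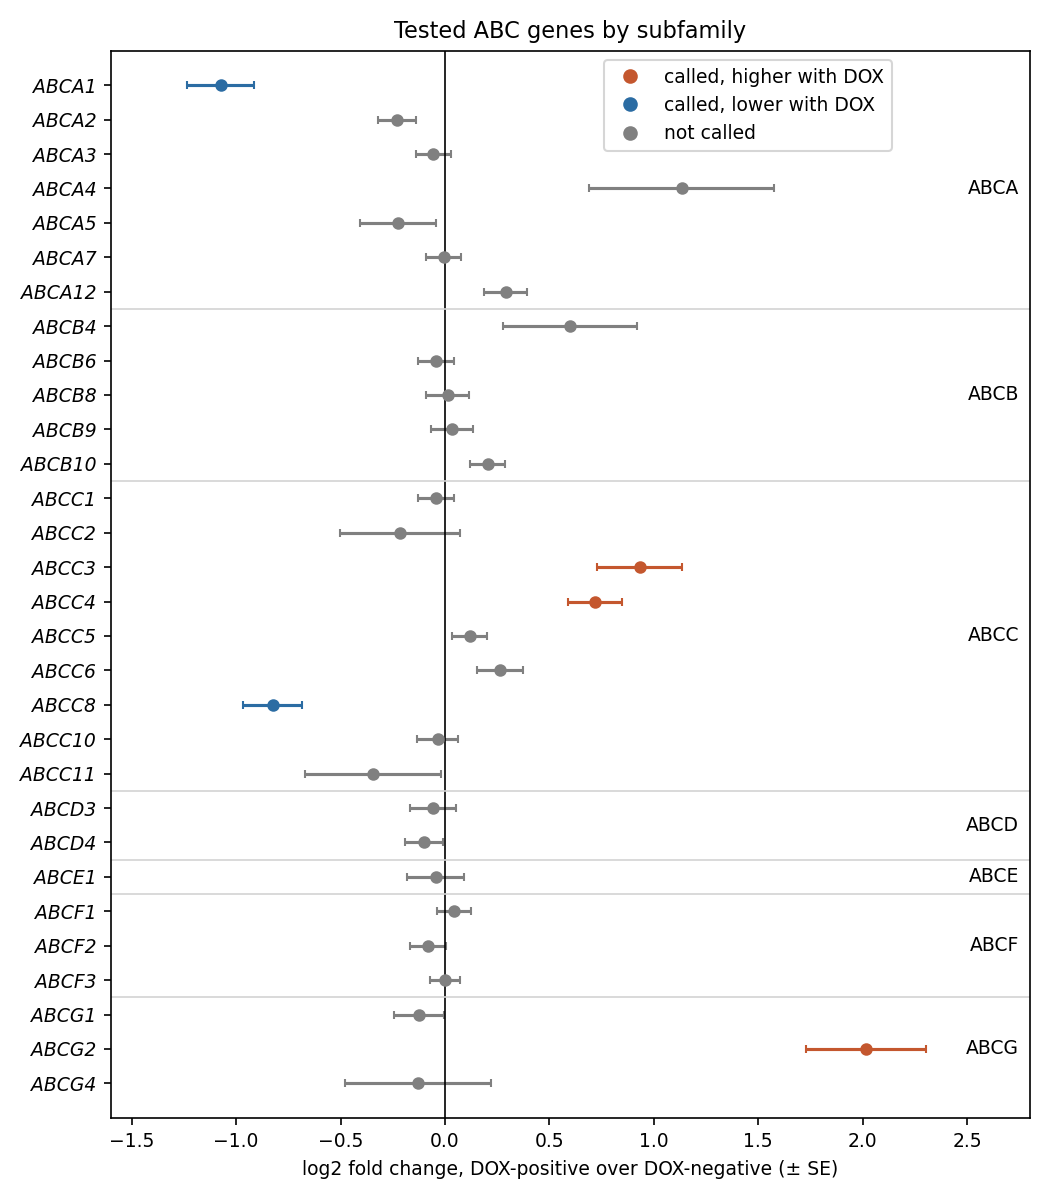
Fitted log2 fold change (x axis, DOX-positive over DOX-negative, ± SE, 3 libraries per group) for 30 of the 32 tested ABC genes, grouped by subfamily along the y axis; coloured points passed the adjusted p threshold. ABCG2 lies at 2.01, ABCC3 and ABCC4 at 0.93 and 0.72, ABCA1 and ABCC8 at -1.07 and -0.82, and most other members lie close to 0.

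Of the called members, 3 have upstream windows in the RefSeq promoter table (GRCh38.p14): ABCG2, ABCC4 and ABCA1. They are shown because CYP1A1, AHR and EPAS1, which belong to the xenobiotic and hypoxia responses described further on, also rose. A link between those genes and the changes in ABC genes was not tested. The windows span the 250 bases before an annotated start, and only the stretch free of GENCODE exons is printed, 5′ to 3′ on the gene's own minus strand. Capitals mark the core bound by the aryl hydrocarbon receptor (GCGTG), the core bound by hypoxia-inducible factors (ACGTG) and the E-box (CACGTG, which contains ACGTG on both strands), each searched on both strands, so that GCGTG also appears as CACGC.
ABCG2, chr4:88159025-88159159: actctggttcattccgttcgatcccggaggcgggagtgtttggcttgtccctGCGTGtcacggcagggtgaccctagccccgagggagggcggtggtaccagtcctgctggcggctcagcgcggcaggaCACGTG
ABCC4, chr13:95301476-95301701: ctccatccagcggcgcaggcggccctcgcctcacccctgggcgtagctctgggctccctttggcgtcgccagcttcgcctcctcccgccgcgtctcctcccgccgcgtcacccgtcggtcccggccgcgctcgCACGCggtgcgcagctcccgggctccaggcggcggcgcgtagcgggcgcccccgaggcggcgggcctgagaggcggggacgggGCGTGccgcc
ABCA1, chr9:104928238-104928405: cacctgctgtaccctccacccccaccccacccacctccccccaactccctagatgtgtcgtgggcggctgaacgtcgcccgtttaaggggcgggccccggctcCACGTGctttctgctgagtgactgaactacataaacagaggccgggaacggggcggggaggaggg
The ABCG2 stretch, upstream of 1 of 5 starts in the table, held 1 GCGTG and 1 E-box, and was chosen for them. Of the 5 full windows of ABCG2, an E-box was in 2, which overlap, and 2 others held none of these motifs. The ABCC4 stretch held 2 GCGTG and no E-box, and the ABCA1 stretch held 1 E-box and no GCGTG. These letters are common: GCGTG was in 32.2% of all 35116 windows, ACGTG in 18.5% and CACGTG in 6.34%. Among the 35 members with an entry, 16 had GCGTG in at least 1 window, 12 had ACGTG and 8 had CACGTG. By window, the shares in the family were 39.6%, 24.5% and 16.98% of 53. A match is a description of the sequence and not a site of binding.

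Drug efflux pumps were the group with the most calls. Of 10 listed pumps 9 were tested, 3 rose and none fell, against 2.91% and 1.96% of all tested genes, with a median log2 fold change of 0.12. ABCG2 (chr4:88090264-88231626) exports anthracyclines, camptothecins, urate and porphyrins. It had 34, 16 and 17 counts in DOX-negative replicates 1 to 3, which is 0.532, 0.259 and 0.357 CPM. In the DOX-positive replicates it had 88, 84 and 147 counts, or 1.16, 1.53 and 1.99 CPM. Each DOX-positive library was above each DOX-negative one, with replicate 1 the closest to the controls. The rise was 4.04-fold (log2 fold change 2.01, SE 0.29, adjusted p = 0.0050), the largest change of any tested member in either direction. Per transcript length ABCG2 stayed among the least abundant tested members: 0.054, 0.028 and 0.030 TPM (counts per transcript length, scaled to 1000000 per library) without DOX, and 0.142, 0.123 and 0.195 TPM with it. The call was lost without DOX-negative replicate 3, where the log2 fold change was 1.97 and the adjusted p 0.054.

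ABCC3 (MRP3, chr17:50634881-50692253) exports glucuronide conjugates and bile acids at the basolateral side of epithelia. It was at 1.346, 1.115 and 1.386 CPM in the DOX-negative replicates and at 1.79, 2.60 and 2.96 CPM in the DOX-positive ones. The groups did not overlap, and the gap was narrowest for DOX-positive replicate 1. The log2 fold change was 0.93 (SE 0.20, adjusted p = 0.024 by edgeR), a 1.91-fold rise. This call was the weakest of the 5. It was lost without DOX-negative replicate 2 (log2 fold change 0.84, adjusted p = 0.11), DOX-negative replicate 3 (0.98, adjusted p = 0.11), DOX-positive replicate 2 (0.89, adjusted p = 0.055) and DOX-positive replicate 3 (0.76, adjusted p = 0.076).

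ABCC4 (MRP4, chr13:95019835-95301451) exports cyclic nucleotides, prostaglandins and nucleotide analogues and is abundant in normal prostate. Its level was 4.79, 4.09 and 4.41 CPM without DOX and 6.61, 6.76 and 8.48 CPM with it. DOX-positive replicate 3 was highest, and the other 2 DOX-positive libraries lay close together above all controls. The rise was 1.65-fold (log2 fold change 0.72, SE 0.13, adjusted p = 0.012 by edgeR). Without DOX-negative replicate 2 the log2 fold change was 0.66 (adjusted p = 0.074), and without DOX-negative replicate 3 it was 0.71 (adjusted p = 0.082).

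The other pumps gave no call. ABCB1, the P-glycoprotein gene, had 0 or 1 count in every library and could not be tested. In the libraries with a count of 0, the limit that such a count allows is 3 counts, or 0.0405 to 0.0630 CPM, counting error only. The limit is higher where 1 count was seen. ABCC1 (MRP1, a broad glutathione conjugate exporter) had a mean of 46.4 CPM ± 0.71 (SD, n = 3) without DOX and 45.1 ± 4.50 with it. Its log2 fold change was -0.041 (SE 0.086, adjusted p = 0.83). ABCC5 (MRP5, a cyclic nucleotide and heme exporter) had an estimate of 0.12 on the log2 scale (SE 0.084, adjusted p = 0.47), ABCC10 one of -0.034 (SE 0.099) and ABCC2, the canalicular conjugate pump, one of -0.21 (SE 0.29). ABCC6, which is linked to soft tissue calcification, was 0.27 higher on the log2 scale (SE 0.11, adjusted p = 0.19). It shares sequence with the pseudogenes ABCC6P1 and ABCC6P2, which were counted too and had log2 fold changes of 0.16 and 0.36, so its counts are uncertain. ABCC11 was at 0.235, 0.226 and 0.252 CPM without DOX and at 0.198, 0.200 and 0.163 CPM with it. Its groups did not overlap, but its log2 fold change of -0.34 (SE 0.33) was not called, and the gene overlaps the far more abundant LONP2.

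The call among lipid transporters was ABCA1, the exporter of cholesterol and phospholipid to apolipoprotein acceptors and a classical target of the liver X receptors. Of 17 lipid, sterol and retinoid transporters listed, 10 were tested, 1 fell and none rose, against 1.96% and 2.91% of all tested genes. Their median log2 fold change was -0.089. ABCA1 (chr9:104781006-104928155) was at 17.3, 18.7 and 19.5 CPM in the DOX-negative replicates and at 11.02, 9.04 and 6.29 CPM in the DOX-positive ones. All 3 DOX-positive libraries were below all controls, and replicate 3 was lowest. The log2 fold change was -1.07 (SE 0.16, adjusted p = 0.0063 by edgeR), which is 2.10-fold lower. Without DOX-negative replicate 3 it was -1.04 (adjusted p = 0.057), and without DOX-positive replicate 2 it was -1.09 (adjusted p = 0.064). NIPSNAP3B overlaps ABCA1 but averaged only 43.2 counts.

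ABCA2, an endolysosomal lipid transporter abundant in neural cells, was the most abundant lipid transporter per length. It was at 117, 122 and 115 CPM without DOX and at 103, 112 and 86.1 CPM with it. The groups did not overlap, yet the log2 fold change of -0.23 (SE 0.093) had an adjusted p of 0.18. ABCA12, which carries glucosylceramide into lamellar granules of the skin, was at 100.1, 96.3 and 90.8 CPM without DOX and at 117, 98.8 and 136 CPM with it. Its log2 fold change was 0.29 (SE 0.10, adjusted p = 0.13). Without DOX-positive replicate 2 it was 0.40 and passed the test (adjusted p = 0.023), the only such gain among members in the fits that left out a library. ABCA3, the surfactant lipid transporter, had a log2 fold change of -0.055, ABCA7 one of -0.0063 and ABCA5 one of -0.22, and none of these was called. ABCA4, the retinal transporter, was tested only because it passed the count filter in the DOX-positive group. It was at 0.188, 0.129 and 0.0630 CPM without DOX and at 0.423, 0.218 and 0.217 CPM with it, a log2 difference of 1.13 (SE 0.44) that was not called (adjusted p = 0.17). ABCB4, a phosphatidylcholine floppase whose gene overlaps CROT, had a log2 difference of 0.60 (SE 0.32, adjusted p = 0.32). ABCG1, which hands cholesterol to lipoprotein particles and is, like ABCA1, a liver X receptor target, was at 7.62, 7.45 and 8.70 CPM without DOX and at 7.18, 8.22 and 6.43 CPM with it. Its log2 fold change was -0.12 (SE 0.12, adjusted p = 0.60), and its difference from the change in ABCA1 was not tested. ABCG4 had a log2 fold change of -0.13 (SE 0.35). The sterol exporters ABCG5 and ABCG8 had no count in any library.

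ABCC8 encodes SUR1, the sulfonylurea receptor, which does not transport but gates ATP-sensitive potassium channels of endocrine and neural cells. The gene lies at chr11:17392498-17476845. It was at 14.9, 17.7 and 17.3 CPM in the DOX-negative replicates and at 10.4, 10.7 and 7.15 CPM in the DOX-positive ones. The groups were well apart, with DOX-positive replicate 3 again the lowest. The log2 fold change was -0.82 (SE 0.14, adjusted p = 0.010 by edgeR), 1.77-fold lower. The call was lost without DOX-negative replicate 3 (log2 fold change -0.80, adjusted p = 0.080). KCNJ11, the pore subunit that SUR1 assembles with, was at 20.6, 19.8 and 18.8 CPM without DOX and at 19.2, 19.8 and 17.8 CPM with it. Its log2 fold change was -0.065 (SE 0.086, adjusted p = 0.72), and a difference between the changes of the channel's subunits was not tested. The other sulfonylurea receptor, ABCC9, and the other pore, KCNJ8, had at most 2 counts per library. ABCC8 is also expressed in neuroendocrine cells, whose markers NCAM1 (log2 fold change -0.50) and INSM1 (-0.45) fell in the same libraries while SYP, CHGA and ENO2 gave no call. The part of those markers in the ABCC8 result was not tested.

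**Figure D2:**
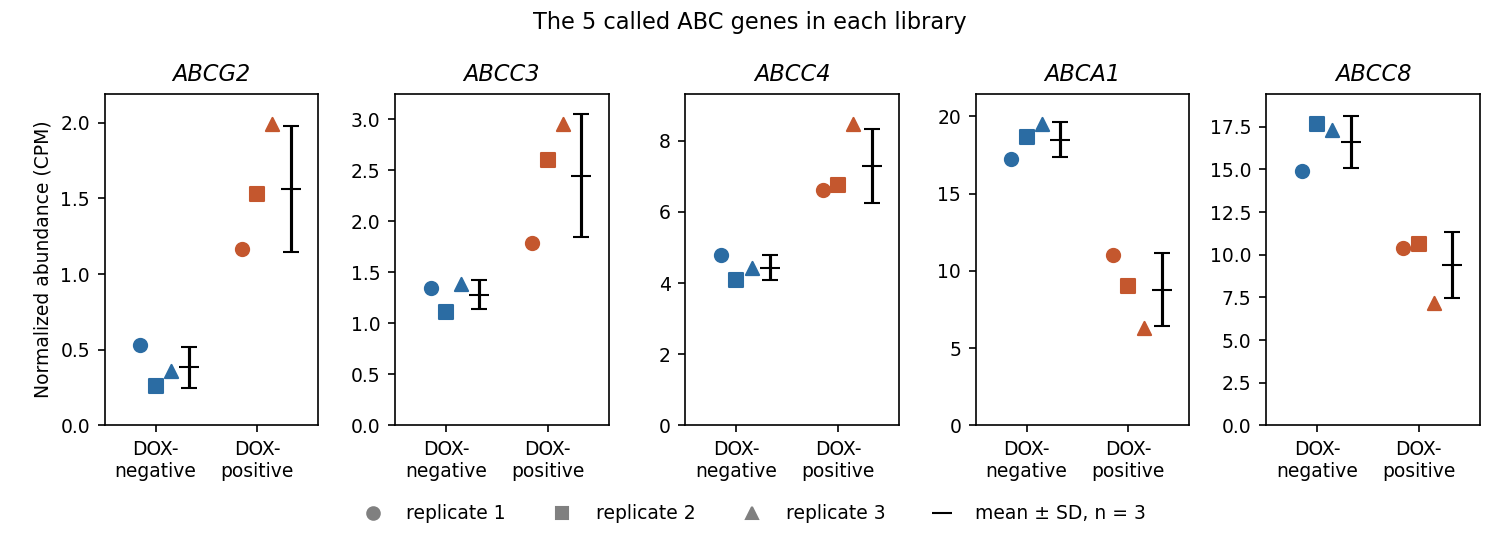
Abundance in CPM (y axis, from 0) of the 5 called ABC genes in each of the 3 DOX-negative and 3 DOX-positive libraries, with marker shape giving the replicate and bars the mean ± SD. In no panel do the groups overlap, and in every panel DOX-positive replicate 3 (triangle) lies farthest from the controls.

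In all 5 called members DOX-positive replicate 3 was farthest from the DOX-negative mean. The DOX-positive replicate nearest to it was replicate 1 in 4 members and replicate 2 in ABCC8. DOX-positive libraries also spread more: over the 27 members with at least 50 counts on average, the median coefficient of variation was 5.48% without DOX and 11.8% with it. Over the 14587 tested genes above the same limit the values were 5.73% and 9.21%. ABCE1, which was not called, was at 34.2, 25.5 and 40.7 CPM in DOX-positive replicates 1 to 3 against 34.3, 32.8 and 36.6 CPM in the controls.

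**Figure D3:**
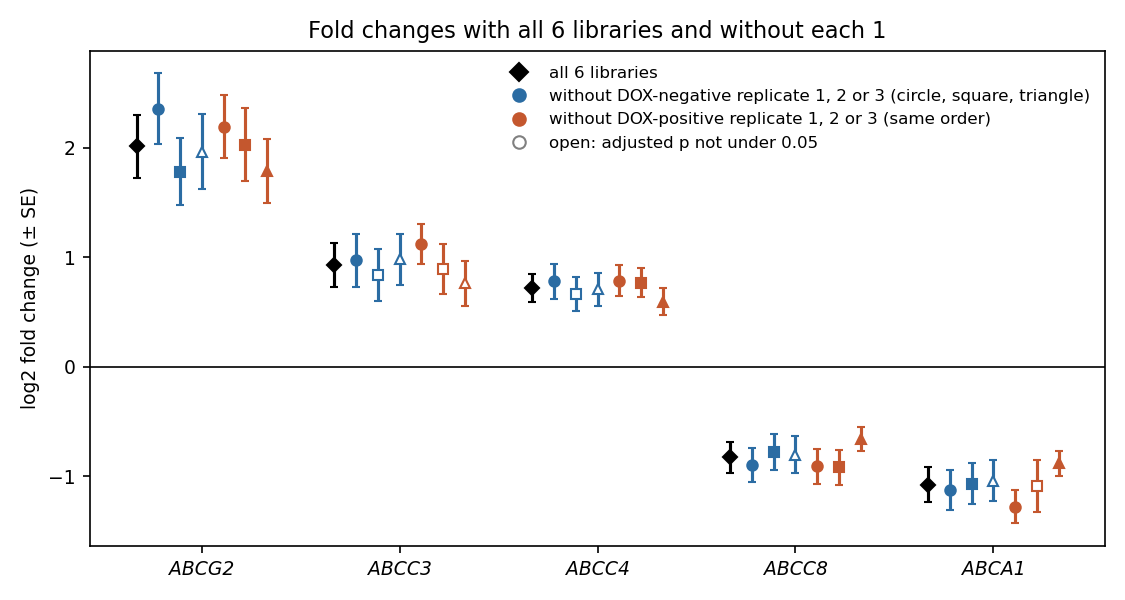
Fitted log2 fold change (y axis, ± SE) of the 5 called ABC genes with all 6 libraries and with each library left out in turn; open symbols did not reach an adjusted p under 0.05. The direction was kept in every fit, and without DOX-negative replicate 3 none of the 5 passed.

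Organelle transporters were expressed and gave no call. All 4 mitochondrial transporters of subfamily B were tested, with a median log2 fold change of -0.014. ABCB10, needed for heme synthesis in erythroid cells, was at 25.6, 25.8 and 28.7 CPM without DOX and at 30.0, 30.6 and 31.8 CPM with it. It was higher in every DOX-positive library and not called (log2 fold change 0.21, SE 0.083, adjusted p = 0.18). ABCB6 and ABCB8 had log2 fold changes of -0.042 and 0.013. None of 7 genes of mitochondrial iron and heme handling, such as FECH and ALAS1, was called, with log2 fold changes from -0.079 to 0.14.

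Of the peroxisomal transporters, ABCD3, which imports branched-chain acyl-CoA and bile acid intermediates, had a log2 fold change of -0.056 (SE 0.11). ABCD2 had at most 6 counts. ABCD4, the lysosomal cobalamin transporter, had a log2 fold change of -0.10 and the lysosomal peptide transporter ABCB9 one of 0.034. The import factors PEX3 and PEX19 and the cobalamin genes LMBRD1, MMACHC and MMADHC gave no call either. TAP1 and TAP2, the ABC transporters that load peptides for antigen presentation and carry other symbols, had log2 fold changes of 0.22 (adjusted p = 0.17) and 0.14 (adjusted p = 0.29). CFTR had no count.

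All 4 ATPases of translation were tested and none was called. ABCE1, the ribosome recycling factor, had a log2 fold change of -0.045 (SE 0.14), and the ABCF proteins, which act on ribosomes, had values of 0.044 (ABCF1), -0.082 (ABCF2) and 0.0010 (ABCF3). ABCF3 was at 55.7, 53.5 and 55.3 CPM without DOX and at 53.1, 56.8 and 54.7 CPM with it, and these ranges overlapped almost completely. Its SE of 0.072 was the smallest in the family. The ribosome rescue and recycling factors PELO, HBS1L, ETF1 and GSPT1 were also tested and not called, with log2 fold changes from -0.045 to 0.089.

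By subfamily, the median log2 fold change was -0.055 in ABCA (7 of 12 members tested, 1 fell), 0.024 in ABCB (6 of 9, none called) and -0.034 in ABCC (9 of 12, 2 rose and 1 fell). It was -0.056 in ABCD (3 of 4, none called), -0.045 for ABCE1 alone, 0.0010 in ABCF (3 of 3, none called) and -0.12 in ABCG (3 of 5, 1 rose). ABCG thus held the member with the largest rise next to members with log2 fold changes just below 0. With so few members per subfamily each median is the value of 1 or 2 genes, and the small differences between medians are descriptions. All 5 calls fell in A, C and G, with 4.87% of all tested genes called.

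Compared per transcript length, 21 of the 46 members averaged at least 1 TPM. ABCF3 was highest with 11.8 TPM ± 1.42 without DOX and 12.1 ± 2.08 with it (SD, n = 3 each), followed by ABCD3 with 10.949 ± 1.503 and 10.951 ± 3.519. The difference between ABCF3 and ABCD3 was within these spreads. ABCA2 averaged 7.02, ABCA12 6.15 and ABCA3 5.94 TPM over the 6 libraries. Of the pumps, ABCC5 (3.21 TPM), ABCC10 (2.79 TPM) and ABCC1 (1.87 TPM) led, and the pumps that rose averaged 0.508 TPM (ABCC4), 0.190 TPM (ABCC3) and 0.0954 TPM (ABCG2). ABCC8 was at 1.36 TPM and ABCA1 at 0.696 TPM. ABCF1 had more counts than any other member, yet only 3.59 TPM. The length implied by its count and TPM was 7.11 times its annotated exon length, set against the median gene. Of 13739 genes, 5% lay below 0.362 and 5% above 1.67, so the TPM of ABCF1 is uncertain. The same ratio was 2.39 for ABCC1 and 2.02 for ABCC6, so their TPM is uncertain too. Before division by length ABCC1 averaged 45.7 CPM over the 6 libraries and ABCC5 43.4 CPM, so their order by TPM is uncertain.

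The family summed to 104, 111 and 85.9 TPM in DOX-negative replicates 1 to 3 and to 122, 81.9 and 98.9 TPM in DOX-positive replicates 1 to 3. The sums overlapped, with means of 100.3 ± 12.9 and 101.0 ± 20.2 (SD, n = 3 each). The ABCC subfamily summed to 10.8, 11.4 and 9.21 TPM without DOX and to 12.4, 9.18 and 9.97 TPM with it. The ABCG subfamily, nearly all of it ABCG1, summed to 1.29, 1.34 and 1.19 TPM and to 1.55, 1.18 and 1.22 TPM. In all 7 subfamilies the summed level was highest in DOX-positive replicate 1, and in 6 it was lowest in DOX-positive replicate 2. This order is not particular to the family. The neuroendocrine markers (385 TPM) and the ribosome rescue and recycling factors (45.6 TPM) also summed highest in DOX-positive replicate 1. It also depends on the scale, since ABCF3 had its highest TPM (14.2) and its lowest CPM (53.1) in that library.

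**Figure D4:**
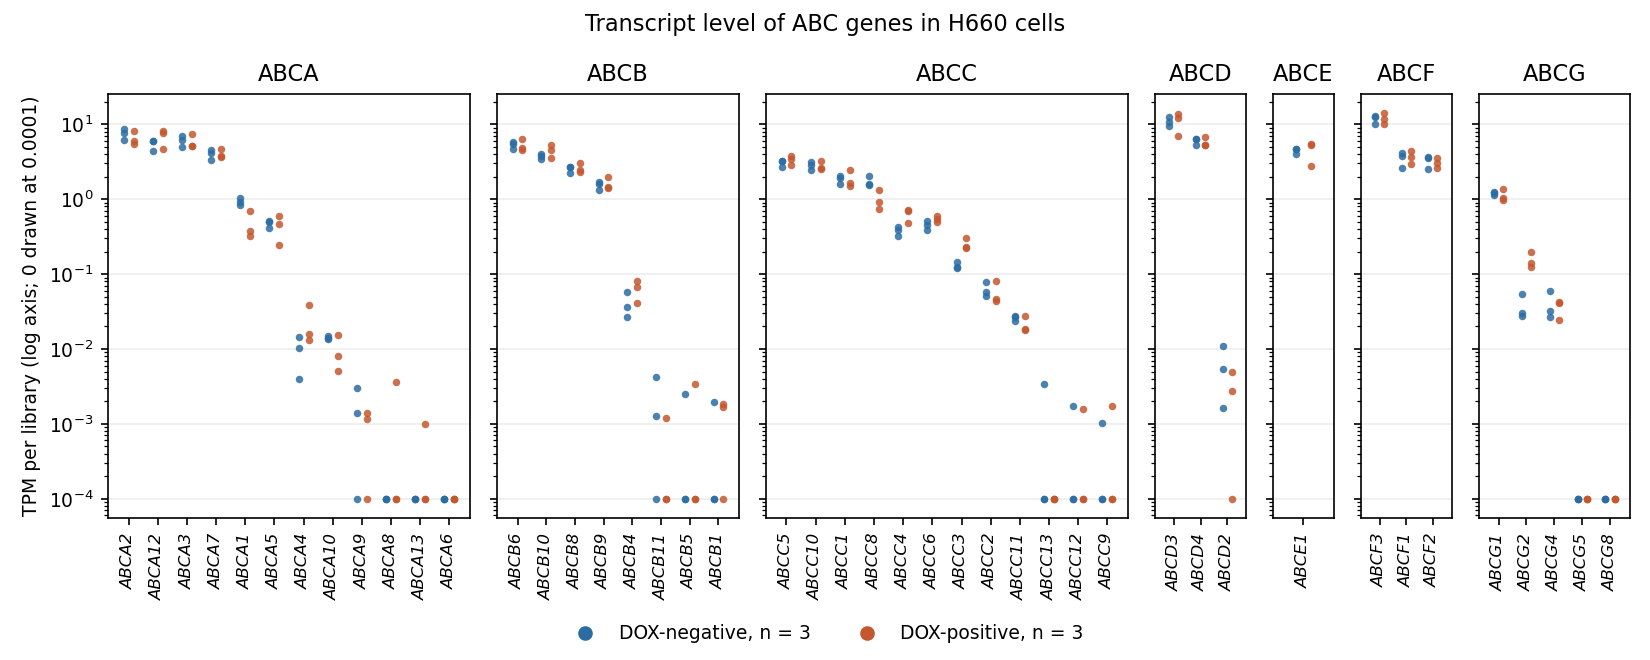
TPM on a log axis (y axis, 0 drawn at 0.0001) of 44 of the 46 ABC genes in each of the 3 DOX-negative and 3 DOX-positive libraries, ordered by mean level within subfamily. Members span from ABCF3 near 12 TPM to genes with no count, and ABCG2 with DOX remains below 0.2 TPM.

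The 14 members that were not tested had few counts. ABCA6, ABCG5 and ABCG8 had no count in any library. The highest count in any library was between 1 and 6 for ABCA8, ABCA9, ABCA13, ABCB1, ABCB5, ABCB11, ABCC9, ABCC12, ABCC13 and ABCD2, and ABCA10 had 4 to 11 counts. ABCA10 was at 0.156, 0.162 and 0.189 CPM without DOX and at 0.146, 0.0727 and 0.0949 CPM with it, a difference not tested in the main fit. The looser count filter tested 40 members and DESeq2 43, and no added member was called. Of the tested members, 31 passed the count filter in both groups and only ABCA4 through the DOX-positive group alone.

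Ligand-activated receptors and stress factors known to act on ABC genes were read from a separate list. This regulator list also held some of their targets, such as CYP1A1, CYP1B1 and MYLIP. Of 26 listed genes 21 were tested, 3 rose and none fell, against 2.91% and 1.96% of all tested genes, and their median log2 fold change was 0.086. AHR, the aryl hydrocarbon receptor, was at 45.4, 46.5 and 48.5 CPM without DOX and at 59.7, 57.8 and 68.5 CPM with it (log2 fold change 0.41, SE 0.083, adjusted p = 0.020 by edgeR). CYP1A1, its best known target, was at 52.1, 34.8 and 36.5 CPM without DOX and at 59.4, 78.2 and 82.6 CPM with it. The groups did not overlap, though DOX-negative replicate 1 was the nearest to the DOX-positive libraries, and the log2 fold change was 0.83 (SE 0.17, adjusted p = 0.027 by edgeR). With replicate number as a block, CYP1A1 was not called (log2 fold change 0.85, adjusted p = 0.30). Other aryl hydrocarbon receptor targets in the list were not called by edgeR: CYP1B1 (log2 fold change 0.22, adjusted p = 0.14) and AHRR (0.27, adjusted p = 0.17). Nor was ARNT, the partner of that receptor (0.086, adjusted p = 0.55). EPAS1, which encodes a hypoxia-inducible factor, was at 26.3, 25.5 and 23.1 CPM without DOX and at 30.7, 32.8 and 34.5 CPM with it (log2 fold change 0.39, SE 0.088, adjusted p = 0.029 by edgeR). None of the 3 was called in the 3 fits on log2 TPM values, and CYP1A1 was not called under the looser count filter (log2 fold change 0.84, adjusted p = 0.051). AHR was not called without DOX-negative replicate 1, 2 or 3 (log2 fold changes 0.39, 0.40 and 0.43, adjusted p = 0.059, 0.10 and 0.094) or DOX-positive replicate 3 (0.33, adjusted p = 0.056). CYP1A1 was not called without DOX-negative replicate 2 or 3 (0.73 and 0.75, adjusted p = 0.084 and 0.13) or DOX-positive replicate 2 or 3 (0.79 and 0.74, adjusted p = 0.16 and 0.084). EPAS1 was not called without DOX-negative replicate 2 or 3 (0.40 and 0.33, adjusted p = 0.12 and 0.16) or DOX-positive replicate 3 (0.34, adjusted p = 0.082). HIF1A had a log2 fold change of -0.088 (adjusted p = 0.60). The liver X receptor genes NR1H2 and NR1H3 had log2 fold changes of 0.19 (adjusted p = 0.27) and -0.094 (adjusted p = 0.70). MYLIP, a liver X receptor target like ABCA1, had a log2 fold change of -0.40 that missed the threshold (adjusted p = 0.068). PPARD, also in the list, came closer to the threshold in the other direction (log2 fold change 0.35, adjusted p = 0.059 by edgeR). A link between MYLIP and ABCA1 was not tested. NR1I2, the pregnane X receptor gene, was too low to be tested. CLU and APOE, from the list of lipoprotein acceptors for exported lipid, were tested and not called.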

How the data were processed

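Total RNA from triplicate cultures was sequenced as poly(A)-selected, stranded mRNA libraries. Per the labels, the authors aligned reads with STAR to GRCh38 (hg38) and analysed counts with DESeq2, with no versions named. The aligner settings, counter, annotation and strand setting are not given in the sources used here. The deposited tables hold raw counts per gene symbol and the authors' TPM, that is counts per transcript length scaled to 1000000 per library. Groups and replicate numbers came from the sample titles. All sample columns were used.

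Counts were tested with edgeR 4.0.16 in R 4.3.3 (filterByExpr, TMM factors, robust quasi-likelihood fit, Benjamini-Hochberg adjustment over 17026 genes), with genes called at an adjusted p under 0.05. The filter kept genes at 0.16 CPM or more in 3 libraries. The alternatives were RLE, upper-quartile or no scaling factors, a count filter made looser or stricter, DESeq2 1.42.0 and limma-voom (limma 3.58.1) in place of edgeR, a fit without robust estimation, limma on log2(TPM + 1) or log2(TPM + 0.1), a replicate block, and leaving out each library. Cultures are not stated to be independent experiments. The p-values set the group difference against the spread between these samples and may not extend to new experiments. Replicates differed beyond sampling noise in all 6 pairs. On simulated counts for this comparison (17026 genes, 200 changed with a log2 fold change of 1), 91.4% of changed genes were recovered. The simulation gave both groups the same spread, set by abundance alone, whereas the DOX-positive libraries spread more in the data. The share recovered among low or more variable genes was not tested.

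Named with values were all called members, the most abundant member and the largest change of each subfamily, the tested drug efflux pumps, and called genes of the partner and regulator lists. Other members and genes of the partner and regulator lists were named after their values were seen. The members and lists were chosen with earlier results of these data known, so no test was run on the lists. Some members and marker genes are not reported here by name. Gene positions and upstream windows came from RefSeq (GRCh38.p14) and exons from GENCODE.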

Additional observations from a re-analysis of the deposited data

How the results depend on the processing

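Across 9 of 12 alternatives that used all libraries, 4 or 5 members were called, against 3.94% to 6.01% of all genes tested. None of the 5 called members changed direction. With limma on log2(TPM + 1) or log2(TPM + 0.1) at a mean TPM of at least 1, and on log2(TPM + 1) unfiltered, 0 members were called, with 1, 1 and 5 at an unadjusted p under 0.05. Those fits called 30, 35 and 0 of all genes, with 332, 329 and 1248 at an unadjusted p under 0.05. ABCG2 passed neither filter of at least 1 (mean CPM or mean TPM). Unfiltered log2(TPM + 1) gave it a log2 fold change of 0.15 (adjusted p = 0.25), a scale that shrinks genes far below 1 TPM, and gave MUC1 -1.22 (adjusted p = 0.29). DESeq2 called 1355 genes against 829 by edgeR.

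Deviations of same-numbered libraries showed no clear positive correlation (-0.54, 0.019 and -0.10 over 14587 genes). Whether replicate numbers pair the samples was not tested further. With the replicate block the same 5 members were called among 998 genes, 750 of these genes shared with the fit without it. Under this block CYP1A1 lost its call, and the 5 members, AHR and EPAS1 did not.

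Leaving out each library gave 0 to 5 called members, against 0.337% to 6.02% of all tested genes. There were 0 without DOX-negative replicate 3 (7 at an unadjusted p under 0.05), where only 0.337% of all tested genes were called. There were 3 without DOX-negative replicate 2, where the share was 0.737%. Over these fits ABCG2 ranged from 1.78 to 2.36, MUC1 from -1.37 to -1.22, and the family median from -0.042 to 0.024. The subfamily medians ranged from -0.16 to -0.053 (ABCA), -0.091 to 0.012 (ABCD) and -0.15 to 0.19 (ABCG). The ABCA median was -0.22 under the looser count filter and -0.15 at a mean CPM of at least 1, where the ABCC median was 0.11. The ABCG median was -0.0042 on unfiltered log2(TPM + 1). The looser filter tested 9 ABCA members, and the stricter one 6 ABCA and 7 ABCC members. The fits without a library tested 8 ABCA members against 7 with all libraries, so the ABCA range is over another set. For the other medians the cause was not tested.

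Direction turned in at least 1 fit for 12 of the 32 tested members, none of them called. It did so with all libraries in ABCA7 and ABCF3, and in the other 10 only when a library was left out, including ABCA3, ABCB8, ABCB9, ABCF1 and ABCG4. ABCF3 was at -0.0055 with RLE factors, -0.0015 with upper-quartile factors, -0.011 without scaling, -0.0060 at a mean CPM of at least 1 and -0.0033 with DESeq2, and from -0.022 to 0.025 when a library was left out. In the last kind of fit ABCC1 ranged from -0.11 to 0.032, ABCC10 from -0.14 to 0.029, ABCC2 from -0.38 to 0.088, ABCD3 from -0.16 to 0.079 and ABCE1 from -0.21 to 0.12. Depth limits the low members most: ABCG2 rests on 16 to 34 counts per DOX-negative library.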
